A study of Danio rerio with 12 samples.

Results

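Macrophages that had arrived at a ruptured brain vessel of zebrafish larvae were compared with macrophages of uninjured larvae. Of the 12 RNA libraries of the study, 4 belong to this comparison: 2 from macrophages at arrival and 2 from uninjured control macrophages, chosen by the lesion stage and cell type in their labels. The other 8 libraries, from macrophages during traction on the vessel ends and from endothelial end cells at the same 3 stages, entered the statistical model and are used only beside a result. All macrophage libraries came from strain ABGO carrying Tg(coro1a:Kaeda; flk1:eGFP). In that line the coro1a promoter drives a photoconvertible protein in leukocytes, and macrophages were sorted as Kaeda(red). The endothelial libraries came from Tg(flk1:DenNTR; coro1a:eGFP) larvae of the same strain. Per the labels' protocol, about 80 cells in 20 animals were turned red with a 405-nm laser for 30 seconds, and the heads were dissociated in 0.5% trypsin and sorted by flow cytometry. The red cells were made into Smart-seq2 libraries, a full-length cDNA method for very small inputs. Controls thus carried the same transgenes, had the same laser treatment by that protocol and lacked the lesion. Whether the groups differed in anything else, such as which cells were chosen for the laser, is not given. The age of the larvae and the time from rupture to arrival are not given in the sources used here, and the coro1a promoter alone does not separate macrophages from neutrophils.

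Brain macrophages of the larva, which include microglia and their precursors, take up dead cells and debris, keep a large lysosomal compartment and migrate to wounds on an actin cytoskeleton. At a bleed, macrophages meet clotting factors, red cell debris and low oxygen. Activated macrophages are known to switch towards glucose use, to make tissue factor and cytokines, and to induce short-lived transcription factors such as ATF3. The roles given for genes below are those known from mammals, and symbols in capitals are the mammalian names that the reference gives to zebrafish gene IDs.

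The 4 libraries held 12283046 to 37292238 reads in genes and 11552 to 14748 genes with at least 1 read. Control replicate 2 was the shallowest and arrival replicate 2 the deepest. Replicates were no more alike than libraries of different groups: Spearman's rho over 17613 tested genes was 0.442 between the arrival replicates and 0.378 between the control replicates, against 0.318 to 0.554 between groups. With inputs this small, many genes were read in 1 library and at 0 in its replicate. Nothing in the labels ties the replicates to different pools of fish. The p-values and SE therefore cover the spread between replicate libraries, which may be technical. That spread is taken over all 12 libraries, traction and endothelial ones included, and not over the 4 compared alone. Values are pairs of RPKM, reads scaled to gene length and to the total reads of the library, with replicate 1 first. Differences are arrival minus control on the log2(RPKM + 1) scale ± SE, which understates the change of genes with low RPKM.

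Markers of the sorted cell type were present in all 4 libraries. The reporter's own gene CORO1A (ENSDARG00000054610) stood at 625 and 1022 RPKM at arrival against 448 and 255 in control, and the macrophage perforin gene MPEG1 (ENSDARG00000055290) at 479 and 1018 against 438 and 291. The defining neutrophil gene lyz (ENSDARG00000057789) was at 0 in all 4 libraries, and the vascular cadherin gene cdh5 (ENSDARG00000075549) at no more than 0.0269 RPKM. The whole lists were not at 0. The neutrophil markers, of which 8 were tested, 6 of them above 0 in difference, summed to 150 and 268 RPKM at arrival and to 66.8 and 138 in control. The endothelial markers, of which 21 were tested, summed to 95.9 and 119 RPKM at arrival and to 56.0 and 43.5 in control. Arrival replicate 1 had the highest sums of the 4 libraries for several other cell types. They were 693 RPKM for glia (77.4 to 346 in the others), 587 for neuron (71.3 to 164) and 185 for photoreceptor and lens markers (0.825 to 60.1). Muscle markers summed there to 158 RPKM (2.65 to 40.3) and erythroid markers to 129 (1.86 to 18.0). Mesenchyme markers were highest in arrival replicate 2, at 303 RPKM. The part of other cell types in the differences below was not tested. The summed RPKM of 41 macrophage and microglia genes was 33677 and 27580 at arrival, and 35433 and 9634 in control, so control replicate 2 carried the lowest macrophage signal. Its 70 cytosolic ribosomal protein genes also summed to 15613 RPKM against 43807 to 65188 in the other 3. Control replicate 1 stood apart in skin genes, with 17 epidermal markers summing to 1033 RPKM, against 54.7 in control replicate 2 and 4.75 and 32.7 at arrival. In these bulk samples, fewer cells of a type and less RNA per cell cannot be told apart.

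**Figure D1:**
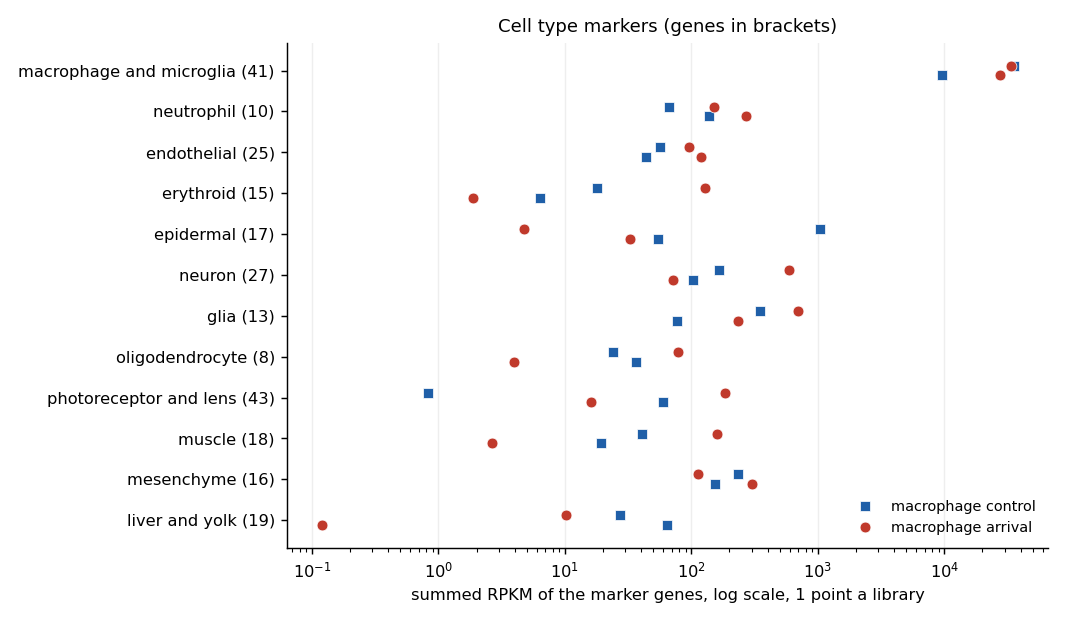
Summed RPKM (log scale) of the genes of 12 cell type marker lists in the 2 arrival libraries (red circles) and the 2 control libraries (blue squares) of macrophages. Macrophage markers exceeded every other list in each library, control replicate 2 had the lowest macrophage sum at 9634, and control replicate 1 the highest epidermal sum at 1033.

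No gene passed between arrival and control in limma (linear models with moderated variances, all 12 libraries, Benjamini-Hochberg over 17613 genes). The share called was 0%, the smallest adjusted p was 0.625, and 732 genes had an unadjusted p under 0.05 where 881 would by chance. The limma adjusted p of every gene named below is therefore at least 0.625, and the genes are described by their 4 values. A gene was counted as having no overlap when both libraries of one group lay above both of the other. By this rule 2200 genes (12.5%) were higher at arrival and 1947 (11.1%) lower. With 2 libraries a side, many genes without a group difference also meet the rule by chance. A chance share was not computed for it, so these counts do not show an excess of changed genes. The shares of gene lists below are set beside those of all genes and not beside chance. With a gap of at least 1 on the log2 scale between the nearest libraries, 918 (5.21%) were higher and 623 (3.54%) lower. Among the 5605 genes with a mean of at least 10 RPKM over all 12 libraries, 19.9% were higher without overlap and 11.3% lower, so abundant genes leaned towards arrival. Their median difference was 0.32, against 0.00 over all tested genes. On reads recovered from the RPKM, limma's voom called 136 genes higher (0.772%) and 76 lower (0.431%). All 212 were without overlap, and in 155 of them both libraries of one group held 0 reads. Except for 1 clone-named gene, a voom adjusted p is printed below only where it is under 0.05. Many genes named below were not called by voom, among them DDIT4 (adjusted p = 0.888), ATF3 (0.790), PFKFB3 (0.547), HK1 (0.545) and PDIA6 (0.118). Voom also used the 4 libraries by which the genes were chosen, so it is no independent support. With quantile normalization between libraries the split was 2013 higher and 2940 lower, so the balance of the directions depends on the scaling. Other scalings moved the median difference of abundant genes by -0.22 to -0.10. With control replicate 1 left out, 23.7% of genes were higher without overlap and 29.9% lower, and with control replicate 2 left out 20.7% and 27.5%.

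Of 20 tested genes of clotting and fibrinolysis, 3 were higher at arrival without overlap and 1 lower, beside 12.5% and 11.1% of all genes. One of the widest gaps on the higher side was that of f3b (ENSDARG00000005673), a gene of tissue factor, the cell-surface starter of clotting. It stood at 88.6 and 291 RPKM at arrival against 0 and 0.0602 in control (7.30 ± 1.69, voom adjusted p = 1.07e-04). The arrival replicates differed from each other several-fold, yet each was far above the controls, and both traction libraries were high as well, at 105 and 282 RPKM. The lower gene was SERPINC1 (ENSDARG00000042684), which encodes the clotting inhibitor antithrombin, at 0.210 and 2.08 RPKM at arrival against 18.9 and 28.1 in control (-3.64 ± 1.79). One thrombin receptor gene, F2R (ENSDARG00000090041), was read only at a low level, at 0.784 and 3.69 RPKM at arrival against 0 in control. The list's median was 0.02, close to that of all genes.

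**Figure D2:**
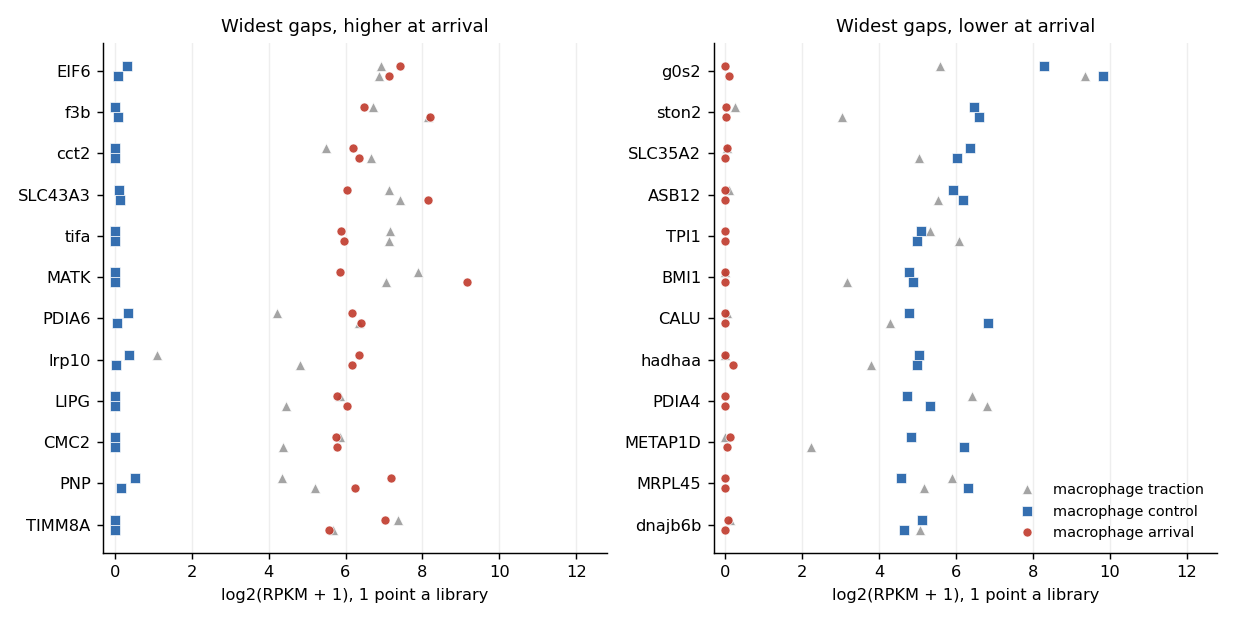
Expression (log2(RPKM + 1)) in each macrophage library of the 12 named genes on each side with the widest gap between arrival (red circles) and control (blue squares), with traction libraries as grey triangles. On the left all controls lie below 1, and on the right the arrival libraries do, while traction values vary between genes.

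Of 27 tested genes of glucose uptake and glycolysis, 11 were higher at arrival without overlap and 2 lower, against 12.5% and 11.1% of all genes, and among the 21 abundant members 10 were higher, against 19.9% of abundant genes. The glucose transporter gene slc2a3b (ENSDARG00000037861) stood at 38.3 and 157 RPKM at arrival against 0.0146 and 0.0337 in control (6.27 ± 1.73, voom adjusted p = 0.00167). Hexokinase, the enzyme that traps glucose in the cell, followed the same order, with HK1 (ENSDARG00000039452) at 13.3 and 57.3 RPKM against 0.0174 and 1.22 (4.26 ± 1.90). Further down the pathway, pgam1a (ENSDARG00000005423), a phosphoglycerate mutase gene, stood at 143 and 351 RPKM against 23.2 and 12.2 (3.66 ± 1.27).

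One ALDOA gene (ENSDARG00000034470), an aldolase, stood at 41.6 and 7.41 RPKM at arrival against 0 in control, at least 223-fold higher. Such folds against 0 compare the mean RPKM of the other group with a floor of 3 reads in each library of the group at 0. Where the replicates of the other group differ, its lower library lies below the printed fold. One copy of the triosephosphate isomerase gene TPI1 (ENSDARG00000025012) was at 0 in both arrival libraries and at 33.2 and 30.4 RPKM in control, at least 350-fold lower. The other copy, TPI1 (ENSDARG00000040988), was on the opposite side, at 263 and 284 RPKM at arrival against 85.9 and 3.59 in control (3.78). Since the copies resemble each other, how the authors' counting divided reads between them is uncertain. The lactate and pyruvate transporter gene SLC16A3 (ENSDARG00000045051) was lower, at 0.0816 and 0.635 RPKM against 27.3 and 8.52 (-3.62 ± 2.19). The glycolysis median was 1.33 with all 4 libraries, 2.03 without control replicate 1 and 0.22 without control replicate 2, the library with low macrophage and ribosomal sums. The count of members higher without overlap was 11 of 27 also without control replicate 2, where 20.7% of all genes were higher. The part of that library's low sums in the median was not tested.

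Of the 33 tested genes of the hypoxia response, 10 were higher at arrival without overlap and 3 lower, or 30.3% and 9.09% beside 12.5% and 11.1% of all genes, with a median of 1.09. ANKRD37 (ENSDARG00000056376), a target of hypoxia-inducible factor (HIF), stood at 66.1 and 39.3 RPKM at arrival against 0 in control, at least 324-fold higher (voom adjusted p = 0.00275). DDIT4 (ENSDARG00000037618), an inhibitor of mTOR signalling induced by low oxygen, was nearly equal in both arrival libraries, at 38.3 and 38.2 RPKM, against 1.87 and 0.105 in control (4.46 ± 1.82). The collagen prolyl hydroxylase gene P4HA1 (ENSDARG00000071082) stood at 6.39 and 8.31 RPKM against 0. PFKFB3 (ENSDARG00000001953), whose product makes the main activator of phosphofructokinase, stood at 49.9 and 24.3 RPKM against 0.0840 and 0.363 (4.88 ± 1.83). Its relative PFKFB4 (ENSDARG00000029075) was lower, at 11.0 and 5.54 RPKM at arrival against 121 and 228 in control (-4.24 ± 1.89). The transcripts of the regulators named next were not higher at arrival without overlap. HIF1A (ENSDARG00000034293), a subunit of HIF, stood at 86.3 and 54.0 RPKM at arrival against 68.5 and 14.2 in control, so the groups overlapped. EPAS1 (ENSDARG00000008697), the HIF-2 subunit, was on the lower side, at 0 at arrival and at 3.14 and 6.22 RPKM in control. It was at least 241-fold lower (voom adjusted p = 0.0236). The other HIF gene hif1aa (ENSDARG00000006181) was at no more than 0.0345 RPKM, and VEGFA (ENSDARG00000034700), the gene of the vessel growth factor, at no more than 0.302. Without arrival replicate 2 the hypoxia median was 0.00, and without either control it was 1.40 or more. Yet without control replicate 1, 12 of 33 members were higher and 11 lower without overlap. These were 36.4% and 33.3%, where 23.7% and 29.9% of all genes were.

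Genes of lipid handling had more members lower than higher. Of 43 tested, 10 were lower at arrival without overlap and 3 higher, or 23.3% lower against 11.1% of all genes, and the median was -0.71. The gene with the widest gap of all named genes was g0s2 (ENSDARG00000078859), whose product inhibits adipose triglyceride lipase and so protects lipid droplets. It was read at 0 and 0.0670 RPKM at arrival against 310 and 907 in control (-9.01 ± 1.75, voom adjusted p = 2.02e-05). The arrival libraries held 0 and 2 reads of it, against 7021 and 8912 in control. In traction libraries it stood at 46.7 and 650 RPKM. ABCA1 (ENSDARG00000074635), the exporter of cholesterol to apolipoproteins, stood at 21.9 and 45.5 RPKM at arrival against 125 and 177 in control (-2.20 ± 1.62).

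Among the lower members was cpt1ab (ENSDARG00000062054), a carnitine palmitoyltransferase gene that admits fatty acids to mitochondria, at 0 and 2.85 RPKM at arrival against 19.4 and 34.3 in control (-3.77 ± 1.89). hadhaa (ENSDARG00000057128), a gene of the trifunctional protein of fatty acid oxidation that was named for its wide gap and is not a list member, was at 0 and 0.154 RPKM against 31.8 and 30.4 (-4.90 ± 1.71). DGAT1 (ENSDARG00000054914), the enzyme of the last step of triglyceride synthesis, was at 0.0181 and 0 RPKM against 20.2 and 3.82 (-3.33 ± 1.17). On the other side stood srebf2 (ENSDARG00000063438), a regulator of cholesterol synthesis, at 7.76 and 15.1 RPKM at arrival against 0 in control, at least 286-fold higher (voom adjusted p = 0.00386). The endothelial lipase gene LIPG (ENSDARG00000031044), which is in no list, stood at 53.9 and 64.6 RPKM against 0, at least 953-fold higher (voom adjusted p = 2.03e-05). The most abundant gene of this list, the apolipoprotein gene apoeb (ENSDARG00000040295), overlapped between groups, at 3276 and 1803 RPKM against 10422 and 1656. The lipid median moved to -0.08 without control replicate 1 and to -0.18 without control replicate 2, and its members lower without overlap then numbered 19 and 20 of 43, where 29.9% and 27.5% of all genes were lower.

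Of 18 tested cytokine and chemokine genes, 4 were higher without overlap and 1 lower (22.2% and 5.56%, beside 12.5% and 11.1% of all genes). il21 (ENSDARG00000067847), an interleukin gene, stood at 53.3 and 172 RPKM at arrival against 0 and 0.334 in control (6.39 ± 1.65, voom adjusted p = 0.0142). In the traction libraries it stood at 0.116 and 13.7 RPKM, below both arrival values. The chemokine gene ccl35.2 (ENSDARG00000070378) stood at 178 and 297 RPKM at arrival against 70.9 and 14.2 in control (2.81 ± 1.67). The tumour necrosis factor gene tnfb (ENSDARG00000013598) was already expressed in control, at 48.8 and 227 RPKM, and stood at 278 and 680 at arrival (2.03 ± 1.66). The chemokine gene CXCL14 (ENSDARG00000056627) was lower, at 0.0589 and 0 RPKM against 23.4 and 2.35 (-3.14 ± 1.66). The list's median was 1.00, and 0.00 without arrival replicate 2.

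In inflammatory signalling, 8 of 35 tested genes were higher without overlap and 4 lower (22.9% and 11.4%, beside 12.5% and 11.1% of all genes). Among the 20 abundant members 5 were higher and 4 lower, against 19.9% and 11.3% of abundant genes. The median was 0.54, but 0.00 without control replicate 1 and 0.02 without arrival replicate 2. The interferon regulatory factor gene irf1b (ENSDARG00000043249) stood at 145 and 63.0 RPKM at arrival against 6.19 and 0 in control (5.17 ± 2.15). ACOD1 (ENSDARG00000069844), the enzyme that makes itaconate in activated macrophages, stood at 95.4 and 55.4 RPKM against 0 and 9.64 (4.50 ± 1.90). LTA4H (ENSDARG00000006029), which makes leukotriene B4, stood at 93.1 and 33.6 RPKM against 9.33 and 0.112 (4.07 ± 1.72). SOCS3 (ENSDARG00000026611), an inhibitor of cytokine receptors, was low, at 1.28 and 11.6 RPKM against 0. The adaptor gene tifa (ENSDARG00000091111), which acts upstream of NF-kB, had almost equal values at arrival, 57.6 and 61.2 RPKM, and was at 0 in control (at least 197-fold higher, voom adjusted p = 0.0105). The inflammatory caspase gene caspa (ENSDARG00000008165) was lower, at 2.75 and 77.4 RPKM against 151 and 121 (-2.99 ± 2.08).

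**Figure D3:**
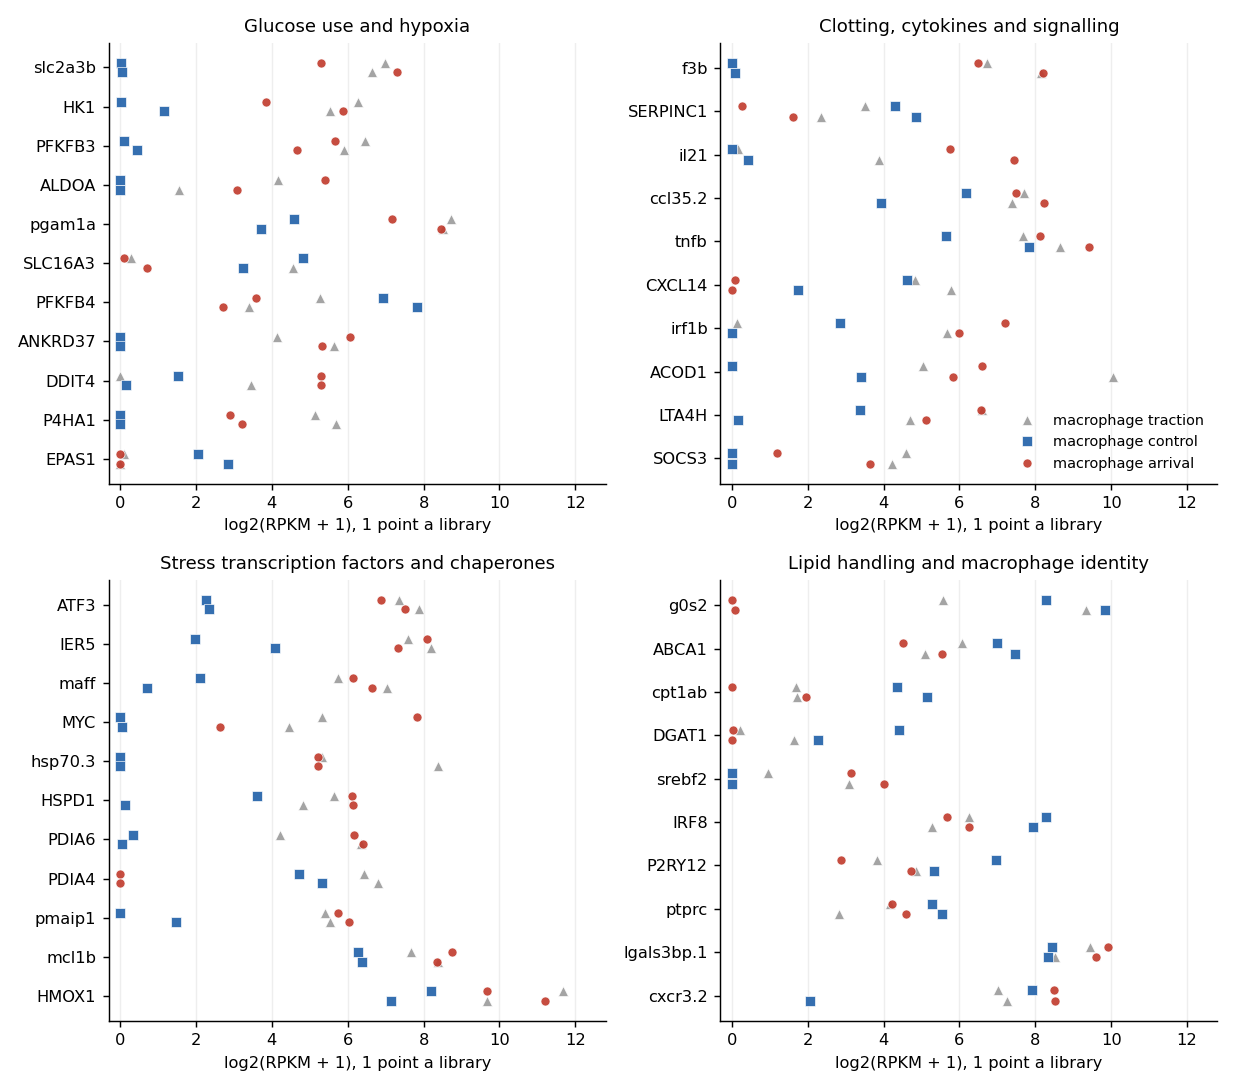
Expression (log2(RPKM + 1)) in each macrophage library of genes from 4 themes, with arrival as red circles, control as blue squares and traction as grey triangles. Of the genes shown, slc2a3b, ATF3 and maff had high traction values like those at arrival, whereas PDIA4 was high in control and traction and at 0 at arrival.

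Immediate early genes are induced within minutes to hours by stress and growth signals. Of 36 tested members 9 were higher without overlap and none lower, against 12.5% and 11.1% of all genes. Among the 29 abundant members 8 were higher and 0 lower, against 19.9% and 11.3% of abundant genes. ATF3 (ENSDARG00000007823), a stress-induced repressor of the bZIP family, stood at 116 and 181 RPKM at arrival against 3.81 and 4.08 in control (4.88 ± 1.75). maff (ENSDARG00000028957), a small Maf factor, stood at 69.5 and 98.9 RPKM against 3.32 and 0.650 (4.98 ± 1.55), and IER5 (ENSDARG00000009881) at 269 and 160 against 2.92 and 15.9 (4.68 ± 1.49). In each of these genes the replicates of a group were closer to each other than to the other group, and the traction libraries lay near arrival, as at 162 and 233 RPKM for ATF3. One MYC gene (ENSDARG00000045695) spread widely at arrival, with 228 and 5.24 RPKM, and was at 0 and 0.0437 in control (5.21 ± 2.15, voom adjusted p = 0.0148). The median of the list was 0.87, but 0.08 without control replicate 1 and 0.05 without arrival replicate 2. In the first case 11 of 36 members were higher and 11 lower (30.6% each), where 23.7% and 29.9% of all genes were. In the second 12 were higher and 8 lower (33.3% and 22.2%), where 5484 and 3754 of 17613 genes were.

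Of 45 tested genes of the heat shock and unfolded protein list, 13 were higher without overlap and 4 lower, or 28.9% and 8.89% beside 12.5% and 11.1% of all genes. All 13 were among the 32 abundant members, beside 19.9% of abundant genes. The list's median was 0.31, and 0.06 without arrival replicate 2. hsp70.3 (ENSDARG00000021924), an inducible heat shock gene with near-identical copies, stood at 36.0 and 36.2 RPKM at arrival against 0 in control, at least 486-fold higher (voom adjusted p = 8.48e-04). The mitochondrial chaperonin gene HSPD1 (ENSDARG00000056160) stood at 68.5 and 69.1 RPKM against 11.1 and 0.0850 (4.27 ± 2.02). Disulfide isomerases of the endoplasmic reticulum were opposed: PDIA6 (ENSDARG00000009001) stood at 70.7 and 83.4 RPKM at arrival against 0.275 and 0.0396 in control (6.08 ± 2.09). PDIA4 (ENSDARG00000018491) was at 0 at arrival and at 25.3 and 39.2 RPKM in control, at least 671-fold lower (voom adjusted p = 8.85e-04).

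In the p53 and apoptosis list, 8 of 36 members were higher without overlap and 3 lower. These shares were 22.2% and 8.33%, beside 12.5% and 11.1% of all genes. The median was 0.24, and 0.00 without arrival replicate 2 or without control replicate 2. pmaip1 (ENSDARG00000089307), which encodes the cell death promoter Noxa, stood at 52.5 and 64.1 RPKM at arrival against 0 and 1.77 in control (5.15 ± 1.79). mcl1b (ENSDARG00000008363), whose product is the survival factor that Noxa binds, was also higher, at 432 and 324 RPKM against 75.9 and 82.6 (2.23 ± 1.22). The p53 inhibitor gene mdm2 (ENSDARG00000033443) stood at 16.8 and 4.09 RPKM against 0.0108 and 0 (3.24 ± 2.04). The initiator caspase gene casp8 (ENSDARG00000058325) was lower, at 0.176 and 0.833 RPKM against 5.04 and 103 (-4.09 ± 1.80). The members higher at arrival thus include both promoters and inhibitors of cell death.

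Genes that mark macrophages did not share a direction. Of 33 tested markers 11 were higher at arrival without overlap and 3 lower, and the median was 0.43. Their shares were 33.3% and 9.09%, beside 12.5% and 11.1% of all genes. The transcription factor gene IRF8 (ENSDARG00000056407), required for macrophage and microglia formation in zebrafish, was lower, at 49.8 and 74.6 RPKM against 309 and 244 (-2.15 ± 1.71). The traction libraries held IRF8 at 74.7 and 37.7 RPKM, also below both controls.

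Of 37 tested immune receptor genes, 4 were higher without overlap and 3 lower, near the shares over all genes. Their median was 0.10, and -0.29 without arrival replicate 2. P2RY12 (ENSDARG00000069945), the purine receptor that guides microglia to injury, was lower, at 6.29 and 25.6 RPKM at arrival against 124 and 39.1 in control (-2.35 ± 1.65). The ATP-gated channel gene p2rx7 (ENSDARG00000042440) stood at 0.0544 and 5.49 RPKM against 33.3 and 18.5 (-3.30 ± 1.41). The common leukocyte antigen gene ptprc (ENSDARG00000071437) stood at 17.5 and 23.3 RPKM against 37.7 and 45.3. Higher were the chemokine receptor genes cxcr3.2 (ENSDARG00000041041), at 359 and 367 RPKM against 240 and 3.18 (3.52 ± 2.32), and cxcr3.3 (ENSDARG00000070669) at 16.6 and 17.1 against 1.70 and 0 (3.44 ± 1.62). The scavenger chemokine receptor gene ACKR3 (ENSDARG00000058179) stood at 3.92 and 40.0 RPKM against 0, at least 245-fold higher (voom adjusted p = 0.0210). lgals3bp.1 (ENSDARG00000040528), a galectin-binding protein gene, stood at 966 and 781 RPKM against 343 and 324 (1.38 ± 1.55). The growth factor receptor gene CSF1R (ENSDARG00000007889) overlapped, at 68.7 and 84.0 RPKM against 64.2 and 151. Both CXCR4 genes also overlapped, one (ENSDARG00000041959) at 0.335 and 40.0 RPKM against 21.0 and 1.70, the other (ENSDARG00000057633) at 0 and 4.63 against 0.492 and 0. The MFAP4 genes are a macrophage family of similar copies, between which the division of reads is uncertain. Of 9 tested, 2 were higher without overlap and none lower, beside 12.5% and 11.1% of all genes.

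Genes of phagocytosis and of iron handling were found in both directions. Of 52 lysosome and phagocytosis genes 9 were higher and 5 lower without overlap (17.3% and 9.62%, beside 12.5% and 11.1% of all genes). Their median was 0.21, and -0.01 and -0.07 with median-ratio scaling and quantile normalization, so it has no direction of its own. The proton pump gene ATP6V1A (ENSDARG00000034534) stood at 104 and 178 RPKM against 48.2 and 49.5 (1.46 ± 2.03). ITGAV (ENSDARG00000006314), an integrin chain used in the uptake of dying cells, was lower, at 20.6 and 17.9 RPKM against 66.5 and 95.4, as was the scavenger receptor gene stab1 (ENSDARG00000076484), at 39.0 and 58.7 against 74.1 and 365. HMOX1 (ENSDARG00000027529), the heme-degrading oxygenase, stood at 817 and 2333 RPKM at arrival against 290 and 141 in control (2.76 ± 1.52), with 3262 and 819 in traction. NFE2L2 (ENSDARG00000042824), a factor that activates HMOX1, stood at 196 and 151 RPKM against 50.5 and 88.9 (1.35 ± 1.64), and keap1a (ENSDARG00000016132), which holds that factor inactive, at 0 and 2.85 against 47.9 and 150 (-5.45 ± 2.17). In the whole list of 32 heme and iron genes 6 were higher and 4 lower (18.8% and 12.5%), with a median of 0.18.

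The study concerns macrophages that adhere and pull, so genes of movement and adhesion were examined. Of 70 tested actin and actomyosin genes, 22 were higher at arrival without overlap and 3 lower, or 31.4% against 12.5% of all genes. Among the 48 abundant members 20 were higher, against 19.9% of abundant genes. Most gaps were narrow: only 3 of the 22 exceeded 1 on the log2 scale, namely ARPC5L, LIMK2 and actr3. ARPC5L (ENSDARG00000035433), a subunit of the Arp2/3 complex that branches actin filaments, stood at 44.4 and 9.06 RPKM at arrival against 0 and 0.0739 in control (4.37 ± 1.85). actr3 (ENSDARG00000091138), the Arp3 subunit itself, stood at 83.0 and 38.9 RPKM against 14.4 and 0 (3.88 ± 1.98). The heavy chain gene of non-muscle myosin MYH9 (ENSDARG00000063295), the motor of cell contraction, stood at 43.9 and 31.3 RPKM against 7.66 and 15.3 (1.68 ± 1.70). ROCK1 (ENSDARG00000058993), a kinase that activates that motor, was lower, at 0.0378 and 5.36 RPKM against 12.1 and 52.0 (-3.36 ± 1.91). The summed RPKM of the actin list was 26124 and 27080 at arrival, 23859 in control replicate 1 and 5708 in control replicate 2. Its median was 0.41, and 0.07 without control replicate 2. In that case 23 of 70 members were higher and 13 lower (32.9% and 18.6%), where 20.7% and 27.5% of all genes were.

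Rac1 and PI3K genes, which link receptors to actin, showed no common direction. Of 22 tested, 2 were higher without overlap and 3 lower, near the shares over all genes. rac1a (ENSDARG00000074849) stood at 59.9 and 53.7 RPKM at arrival against 55.5 in control replicate 1, and was almost unread in control replicate 2, at 0.0389. The leukocyte gene rac2 (ENSDARG00000038010) stood at 346 and 125 RPKM against 277 and 56.8, and the other RAC1 gene (ENSDARG00000087954) was at 2.88 RPKM or less. Of 9 tested subunits of class I and III PI3K, 1 was higher without overlap and 2 lower, beside 12.5% and 11.1% of all genes. The leukocyte catalytic subunit PIK3CG (ENSDARG00000017757) stood at 22.7 and 22.8 RPKM against 16.2 and 15.7 (0.49 ± 1.79). PIK3C3 (ENSDARG00000054829), the kinase of autophagy and endosomes, was at 0 at arrival and 6.46 and 9.28 RPKM in control, at least 212-fold lower (voom adjusted p = 0.0266).

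Integrins and adhesion genes split, with 8 of 42 higher and 6 lower without overlap (19.0% and 14.3%, beside 12.5% and 11.1% of all genes). cd44b (ENSDARG00000089892), a hyaluronan receptor gene, stood at 16.4 and 4.72 RPKM at arrival against 0 and 0.610 in control (2.98 ± 1.76). The tetraspanin gene cd9b (ENSDARG00000016691) was lower, at 0.0262 and 0 RPKM against 13.9 and 58.5 (-4.88 ± 2.21, voom adjusted p = 0.0138). Among 42 genes of matrix, proteases and growth factors, only 2 were higher and 2 lower without overlap (4.76% each, below the shares of all genes). IGF1 (ENSDARG00000094132), a growth factor gene, stood at 32.6 and 13 RPKM against 0.0286 and 0 (4.42 ± 1.43), and was at 0 in both traction libraries. HBEGF (ENSDARG00000031246), an EGF-receptor ligand, stood at 40.9 and 38.6 RPKM against 21.7 and 0.0972 (3.03 ± 1.82). The membrane protease gene MMP14 (ENSDARG00000008388) was lower, at 4.48 and 9.91 RPKM against 22.8 and 57.3 (-2.27 ± 2.07).

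**Figure D4:**
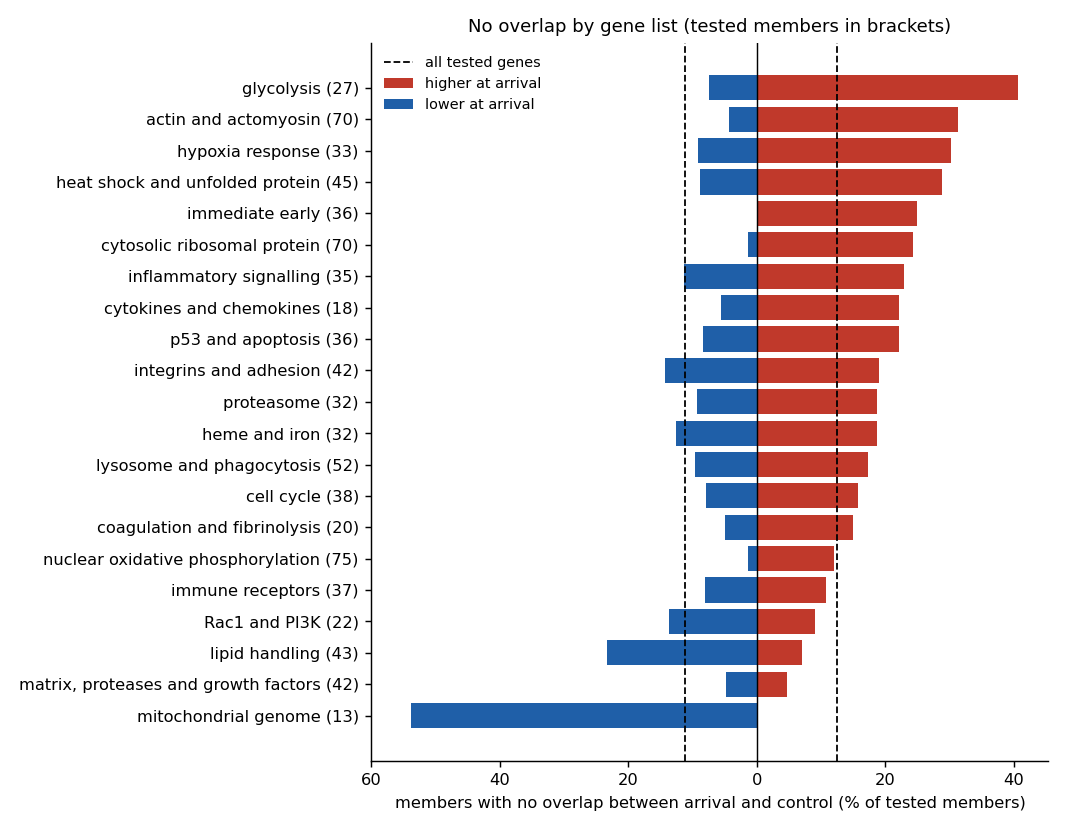
Share of the tested members of 21 gene lists with no overlap between groups, higher at arrival to the right and lower to the left, with dashed lines at the shares of all tested genes (12.5% and 11.1%). Glycolysis reached 40.7% higher, lipid handling 23.3% lower and the mitochondrial genome 53.8% lower.

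The medians of the large housekeeping lists depended on control replicate 2. Medians of cytosolic ribosomal protein (0.88), nuclear oxidative phosphorylation (0.68) and proteasome genes (1.70) were above 0 with all libraries. Without control replicate 2 they were -0.03, -0.81 and -0.30, so their direction turned in each case, the ribosomal median only to near 0. For example, RPL4 (ENSDARG00000041182), a large-subunit protein gene, stood at 1159 and 1110 RPKM at arrival, 783 in control replicate 1 and 54.7 in control replicate 2 (2.44 ± 1.35). Likewise the respiratory complex I gene NDUFB10 (ENSDARG00000028889) stood at 400 and 137 RPKM against 69.5 and 1.22 (4.23 ± 1.56). Of 75 nuclear oxidative phosphorylation genes 9 were higher without overlap and 1 lower, 12.0% against 12.5% of all genes. Without control replicate 2, 11 of the 75 were higher and 40 lower (14.7% and 53.3%), where 20.7% and 27.5% of all genes were. In that case the shares were 24.3% and 15.7% for ribosomal protein genes and 25.0% and 37.5% for proteasome genes.

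Transcripts of the mitochondrial genome kept one direction whichever library was left out. Of its 13 protein genes 12 were below 0 and 7 lower without overlap (53.8% against 11.1%), with none higher. The median was -0.67 and ran from -1.18 to -0.16 with single libraries left out. MT-ND4 (ENSDARG00000063917), a complex I subunit, stood at 2522 and 1949 RPKM at arrival against 3581 and 5646 in control (-1.02 ± 0.74). MT-CO1 (ENSDARG00000063905), the catalytic subunit of cytochrome oxidase, stood at 7297 and 5259 RPKM against 11167 and 8659 (-0.67 ± 0.68). These genes lie on one molecule and are not independent, no gap reached 1, and no voom test passed.

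**Figure D5:**
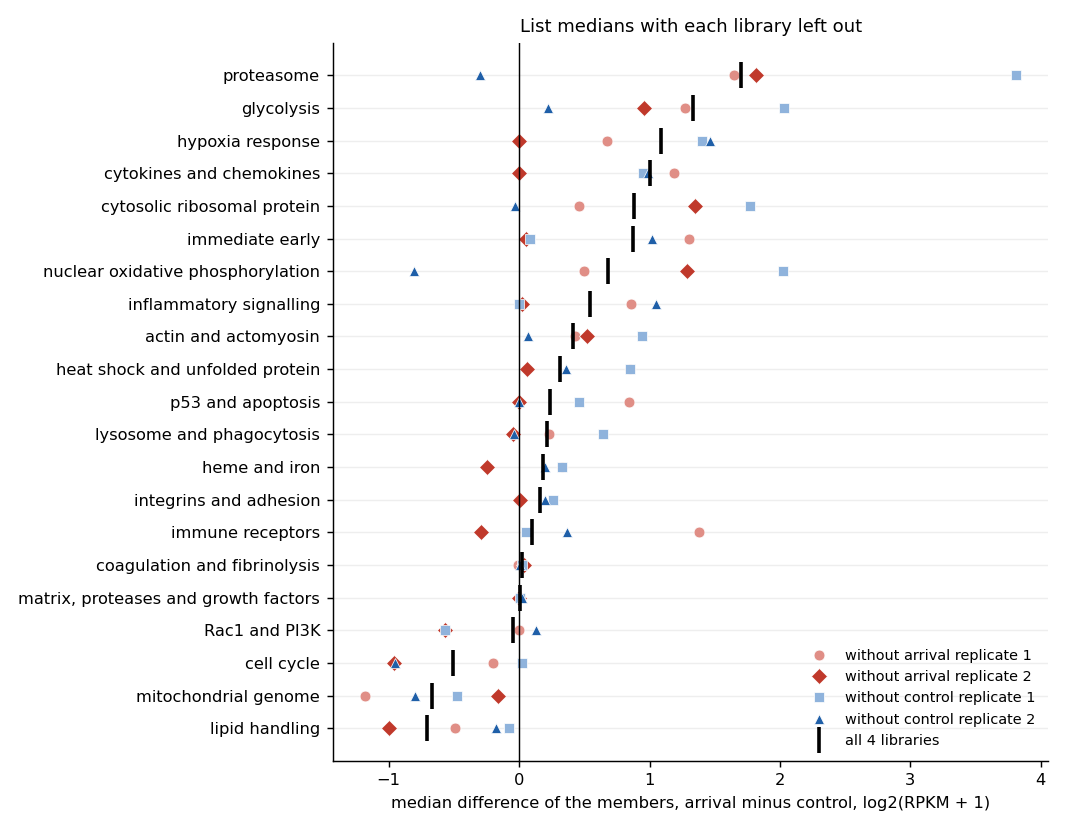
Median difference (arrival minus control, log2(RPKM + 1)) of the members of 21 gene lists with all 4 libraries (black bars) and with each library left out in turn (coloured symbols). Without control replicate 2 the medians of proteasome, ribosomal protein and nuclear oxidative phosphorylation genes lie below 0, whereas those of the mitochondrial genome and of lipid handling lie below 0 in every case.

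The other named genes with the widest gaps came from varied processes. Higher at arrival were the ribosome assembly factor gene EIF6 (ENSDARG00000020232), at 171 and 139 RPKM against 0.253 and 0.0530 (7.08 ± 2.32, voom adjusted p = 0.0476), and the chaperonin subunit gene cct2 (ENSDARG00000087206), at 72.8 and 80.4 against 0. Purine metabolism was represented by PNP (ENSDARG00000078619), a nucleoside phosphorylase, at 144 and 75.4 RPKM against 0.440 and 0.116 (6.37 ± 1.73), and by the purine base transporter gene SLC43A3 (ENSDARG00000057949), at 64.7 and 282 against 0.0839 and 0.0965 (6.97 ± 1.63). MATK (ENSDARG00000074670), a kinase that inhibits Src-family kinases, stood at 56.9 and 569 RPKM against 0, at least 2367-fold higher (voom adjusted p = 2.06e-06). lrp10 (ENSDARG00000054539), a lipoprotein receptor relative, and the mitochondrial genes CMC2 (ENSDARG00000043635) and TIMM8A (ENSDARG00000023672) completed the higher side, at 46.2 to 130 RPKM at arrival against 0.297 or less in control.

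Lower at arrival were ston2 (ENSDARG00000057452), an endocytosis adaptor gene, at 0.0207 and 0.0163 RPKM against 86.9 and 96.5 (-6.51 ± 2.11, voom adjusted p = 0.00491), and the UDP-galactose transporter gene SLC35A2 (ENSDARG00000058990), at 0.0242 and 0 against 81.1 and 64.6 (-6.18 ± 1.68). ASB12 (ENSDARG00000017086), the Polycomb gene BMI1 (ENSDARG00000013076), the calcium-binding CALU (ENSDARG00000045676) and the mitochondrial ribosome gene MRPL45 (ENSDARG00000044942) were at 0 in both arrival libraries and at 22.7 to 113 RPKM in control. METAP1D (ENSDARG00000019715), a mitochondrial aminopeptidase, and the co-chaperone gene dnajb6b (ENSDARG00000020953) were at 0.0912 RPKM or less at arrival and at 23.9 to 73.0 in control. By smallest p, RAPGEF6 (ENSDARG00000010945), an activator of Rap proteins, was at 0 at arrival and at a mean of 36.3 RPKM in the 2 controls, higher in replicate 2, at least 1243-fold lower (voom adjusted p = 1.07e-04). Chosen in the same way were vtg8 (ENSDARG00000092028), a yolk protein gene, at 0.0114 and 0.113 RPKM against 18.1 and 63.1, SOSTDC1 (ENSDARG00000056021) at 0 against 7.86 and 49.6 and spaca6 (ENSDARG00000097454) at 0 against 9.27 and 13.8. The epidermal factor gene TP63 (ENSDARG00000044356) was also lower, at 0.584 and 0 RPKM against 16.7 and 51.5 (-4.60 ± 1.28). The epidermal list as a whole had 3 of 13 members lower without overlap (23.1%, beside 11.1% of all genes). Its median of -2.97 became 0.00 without control replicate 1.

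The traction libraries, from the later stage, were set beside these differences. Of the 918 genes higher at arrival with a gap of at least 1, 457 had both traction libraries on the arrival side of the midpoint between the groups, 334 had 1 and 127 had neither. Of the 623 lower genes these numbers were 274, 261 and 88. PDIA4 was among those with neither, at 85.0 and 110 RPKM in traction, and so was TPI1 (ENSDARG00000025012), at 38.9 and 66.6. Both stages are set against the same controls here, so this is no independent repeat. The genes were also chosen by their arrival and control values, and no share over all tested genes was taken. The counts therefore do not measure how much the stages share.

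The change in macrophages was also set against that of endothelial end cells, and no difference between the cell types passed. The interaction of cell type with the change from control to arrival was called for 0 of 17613 genes in limma (629 with an unadjusted p under 0.05, smallest adjusted p 0.949). In endothelial cells f3b stood at 47.2 and 14.8 RPKM at arrival against 0.0388 and 0 in control, the same order as in macrophages. ANKRD37 stood in them at 0 and 25.3 RPKM at arrival against 217 and 103 in control, the opposite order. g0s2 was at 0 in all 4 endothelial libraries of these stages.

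In the authors' deposited table for this comparison, 159 of 21603 genes with a p-value were marked higher at arrival (0.736%) and 123 lower (0.569%). Of the 270 marked genes among those tested here, 198 had no overlap and 72 did overlap. In the authors' deposited table, 3 genes had an adjusted p under 0.05: g0s2 (0.0344), ston2 (0.0410) and si:dkey-119g10.4 (ENSDARG00000095801, 6.48e-05). The last, singled out for this reason after its values were seen, has only a clone name. It stood at 3922 and 5790 RPKM at arrival against 19.0 and 1.94 in control (9.28 ± 1.71), and at 15215 and 1313 in traction, but voom did not call it (adjusted p = 0.902).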

How the data were processed

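RNA was measured in 12 Smart-seq2 libraries, 2 for each of 6 groups. The deposited table gives RPKM, made by the authors, and deposited comparison tables give the authors' group means as a normalised signal, with the authors' own p-values for macrophage arrival against control. Per the submitters' processing notes the tools were TopHat2 (2.0.12), with Bowtie2 at version 2.2.3, HTSeq at 0.6.0, and DESeq at 1.16.0, with no roles given. The genome build, annotation, strand setting and treatment of reads that match several genes are not given in the sources used here. No molecular identifiers are named in the labels, so reads are not independent molecules, and intervals or floors cover counting error only.

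Reads per gene were recovered from the RPKM and the authors' group means. All values above 0 were whole within 0.05 reads. A gene was tested when 2 or more libraries held 10 or more of its reads, scaled to the median library, and all libraries together 15 or more, leaving 17613 of 33737 genes, of which 14201 had a name. Log2(RPKM + 1) was fitted with limma 3.58.1 in R 4.3.3 (trend, robust variances, 6 group means, 12 libraries), two-sided, with Benjamini-Hochberg adjustment and a threshold of 0.05. Voom on the recovered reads was an alternative. With 2 libraries a side, an exact permutation test has a smallest two-sided p of 0.333 and was not used. For genes at 0 in both libraries of a group, the mean RPKM of the other group was divided by the mean RPKM that 3 reads would have in each of these libraries. The test code was checked on simulated data.

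Genes were named by a rule: on each side the 12 widest gaps and the 6 smallest p-values among genes with a name, up to 4 and 2 members of each of 33 gene lists (12 of cell type markers, 21 of processes), and genes the study turns on. Not every such gene is printed, and some are not reported here. apoeb, CSF1R and other genes that overlap were named whatever their values. Clone names were not taken as names. The second TPI1 gene was named beside its copy after its values were seen, and lyz and cdh5 were added as markers. The libraries, gene lists and the rule were chosen with earlier results of these data known. Replicate numbers were checked as pairs: deviations of same-numbered arrival and control libraries correlated at 0.015 over genes, so they were not treated as pairs. Alternatives were other pseudocounts, filters, scalings, subsets of libraries and each library left out. Sequences and coordinates were not used here.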

Additional observations from a re-analysis of the deposited data

How the results depend on the processing

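The count of 0 genes called by limma between arrival and control stayed at 0 with pseudocounts of 0.1 or 5, no filter, a stricter filter, each of the 3 other scalings, a replicate block, macrophage libraries alone, the 4 libraries alone and without the 3 libraries rich in photoreceptor genes. Voom on recovered reads called 212. With single libraries left out the count ran from 0 to 79, and the 79 came without control replicate 1, where the remaining control library is assumed to vary like the other groups. Of the genes named in the text, vtg8, SOSTDC1 and spaca6 were called lower there and si:dkey-119g10.4 higher. The replicate block gave 0 calls, and same-numbered arrival and control libraries correlated at 0.015, with -0.211 to 0.140 over all pairs of groups, so numbers were not taken as pairs. The count of genes higher without overlap was 918 with a gap of at least 1 and ran from 3653 to 5484 with a library left out, where 1 value stands for a group. The count lower was 623 with that gap, 2940 with quantile normalization, and 3189 to 5272 with a library left out. The interaction with cell type kept 0 calls with no filter, a pseudocount of 0.1 and a replicate block. Of the genes named, 7 turned direction, all with groups that overlap. With a library left out, differences ran from -2.10 to 0.55 for apoeb, -0.99 to 0.24 for CSF1R, -2.53 to 2.41 and -0.29 to 2.2 for the CXCR4 genes (ENSDARG00000041959 and ENSDARG00000057633), -0.77 to 0.79 for RAC1 (ENSDARG00000087954) and -0.41 to 1.86 for rac2. cdh5, at 0.0269 RPKM or less, ran from -0.02 to 0.02 and was at 0.06 with quantile normalization and 0.12 with voom. The first CXCR4 gene was at 0.23 with a pseudocount of 5. RAC1 was at -0.14 with median-ratio scaling, -0.44 with quantile normalization and -0.04 when rescaled without the 10 top genes. The other named genes kept their direction under these settings. Voom called 32 of the named genes. Medians of the 33 gene lists moved by more than the replicate spread in 25 of 132 values with a library left out and in 35 of 396 under the other settings. Counts of list members with a library left out were an alternative chosen after seeing the data. The cause of these changes was not tested. About 80 cells were turned red before dissociation and sorting, and the number recovered into a library is not given. A gene at 0 in a library was not detected there and cannot be called absent.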

Other observations

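Of 38 tested cell cycle genes, 6 were higher at arrival without overlap and 3 lower, shares of 15.8% and 7.89% beside 12.5% and 11.1% of all genes. The 6 were MCM6, PCNA, MCM5, GMNN, MYBL2 and FOXM1, and the 3 were CDK1, mki67 and TPX2. MCM6 (ENSDARG00000057683), a subunit of the replicative helicase, stood at 86.8 and 25.7 RPKM at arrival against 0.198 and 0.101 in control (5.40 ± 2.01), and MCM5 (ENSDARG00000019507) at 19.0 and 25.6 against 3.89 and 1.46 (2.73 ± 2.06). GMNN (ENSDARG00000035957), which limits replication to once a cycle, stood at 3.48 and 6.31 RPKM against 0.111 and 0. CDK1 (ENSDARG00000087554), the kinase that starts mitosis, stood at 0.0373 and 0.0196 RPKM at arrival against 155 and 8.99 in control (-5.26 ± 2.26, voom adjusted p = 0.0299). The proliferation marker gene mki67 (ENSDARG00000091150) stood at 0.00623 and 8.96 RPKM against 16.5 and 25.2. FOXM1 (ENSDARG00000003200), a regulator of mitotic genes, stood at 2.43 and 3.28 RPKM at arrival against 0.0105 and 0 in control. The list's median was -0.51, and 0.02 without control replicate 1, so its direction rests on that library.

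Of 21 endothelial markers, 3 were higher and 3 lower without overlap, with a median of 0.01. Each share was 14.3%, beside 12.5% and 11.1% of all genes. The lipid transporter gene MFSD2A (ENSDARG00000035909) stood at 63.2 and 78.2 RPKM at arrival against 0 and 28.3 in control, and the glucose transporter gene SLC2A1 (ENSDARG00000007412) at 2.52 and 7.15 against 0, at least 50.8-fold higher. The tight junction genes CLDN5 (ENSDARG00000014059 and ENSDARG00000043716) of the same list were at 0 at arrival and at no more than 0.0523 RPKM in control. They are among the 3 lower genes on 1 or 2 reads in each control library, with gaps of -0.06 and -0.03, since the rule has no floor. Of the lower members, 0 had a gap of at least 1. The neutrophil list held 1 gene without overlap, nccrp1 (ENSDARG00000035326), at 85.1 and 49.4 RPKM at arrival against 4.75 and 0.379 in control (4.55 ± 2.21), while lyz was at 0. Of 22 neuron markers 2 were higher and 3 lower (9.09% and 13.6%), and of 12 glia markers 2 and 1 (16.7% and 8.33%). Of 23 photoreceptor and lens markers none was without overlap.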
